A study of Homo sapiens with 17 samples.

Results

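Cancer-testis antigens are proteins whose genes are active in the germ line, silent in most adult tissues and active again in many tumours. Here 73 genes of these families were followed in K562, a line of human chronic myeloid leukaemia cells that can express erythroid genes. They were taken by symbol from the 57638 annotated genes with a transcript in the data: every gene except pseudogenes whose symbol starts with GAGE, PAGE, XAGE, MAGEA, MAGEB, MAGEC, SSX or CT45, and also PRAME and RHOXF2. Of these, 71 lie on chromosome X, PRAME lies on chromosome 22 and SSX2IP on chromosome 1. There were 70 protein-coding genes and 3 others, the antisense RNAs MAGEA8-AS1 and MAGEA4-AS1 and the readthrough MAGEA10-MAGEA5. SSX2IP carries the SSX prefix because its product binds an SSX protein, so it is counted but kept out of the SSX sum. The 8 family sums held 67 genes. The title of the series concerns GOLGA8 genes and the uptake of antisense oligonucleotides, short synthetic strands that bind RNA.

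All libraries came from K562 cells electroporated with plasmids for CRISPR activation, a method that recruits an activator to a chosen gene, then treated with an antisense oligonucleotide and taken on day 6. No library lacked the plasmids or the oligonucleotide by its labels, and the oligonucleotide is not named. Each library was a 3′ tag profile, in which reads come from the ends of polyadenylated RNA. Activation plasmids named for GOLGA8N went into 3 libraries (GOLGA8N 1, GOLGA8N 2 and 23-GOLGA8N), and those named for LAPTM4B into another 3 (LAPTM4B 1, LAPTM4B 2 and 22-LAPTM4B). The other gene labels, with 1 library each, were 20-ARSF, 21-CTPS2, TTR, TRPC5OS, ADORA2A, UBE2V1 and COL6A6. Another library was labelled E7, whose meaning the labels do not give. No human gene is named by the labels Neg, RFP and GFP, which formed the reference arm. The 4 labels with a number before the gene (prefixed) were also set against the 13 without one (unprefixed), and the labels do not say what the prefix means. Prefix and plasmid are not balanced: ARSF and CTPS2 occur only with a prefix, and only GOLGA8N and LAPTM4B occur both ways. Whether the libraries of an arm were grown as separate cultures is not said in the labels. A p-value therefore reflects the spread among libraries alone, and that spread may be technical.

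As background, cancer-testis genes of chromosome X sit in clusters of recent copies, and DNA methylation of their promoters keeps them silent in most adult cells. MAGE proteins share a domain that binds RING ubiquitin ligases. PRAME is a leucine-rich repeat protein that can act with a cullin ligase and was described as a repressor of retinoic acid receptor signalling. SSX proteins are nuclear repressors known from the SS18 fusion of synovial sarcoma, and RHOXF2 is a homeobox factor of germ cells. GAGE, PAGE and XAGE are related families of small proteins whose functions are little known.

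The 17 libraries held 569057 (GFP) to 4236396 (20-ARSF) estimated reads, so 3 reads corresponded to 5.45 CPM (counts scaled to a common total of reads in genes) in GFP and to 0.734 CPM in 20-ARSF. GFP, the shallowest library, had the lowest sum in 4 of 10 groups. With reads taken as independent counts, each of the 136 pairs of libraries differed by more than sampling noise. The closest pair had a chi-square of 7.62 for each degree of freedom. Whether reads are independent molecules is not given. Of the named targets, only GOLGA8N and LAPTM4B were looked at. GOLGA8N had 0.692 reads in its 3 libraries (0.106 CPM on average) and 1.32 in the 14 others (0.0234 CPM). These fractional counts are too few to tell whether GOLGA8N was activated, and whether its reads were divided with other genes was not tested. LAPTM4B was not higher in its own arm, with 189 ± 29.7 CPM on average (SD, n = 3), against 253 ± 24.4 CPM in the reference arm (SD, n = 3). All 10 K562 markers were expressed, led by the globins HBG2 (3691 CPM) and HBZ (1966 CPM). Of other lineages, CD3D stood at 65.8 CPM while the other 3 T cell markers had 0 reads, and 4 of 6 germ cell markers had 0 reads with a summed level of 0.892 CPM. The epithelial markers EPCAM and KRT14 stood at 73.6 and 15.4 CPM, the fibroblast marker COL1A2 at 43.7 CPM and the monocyte marker LYZ at 14.2 CPM.

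Promoter windows of RefSeq (build GRCh38.p14, 250 bases before to 50 after the start) are printed for the genes whose copies exchange reads and for PRAME, with MAGEB4 as a member with almost no reads. The capitals mark CpG, the dinucleotide that is methylated in silenced cancer-testis promoters. PRAME is at chr22:22559216-22559515 on the minus strand, GAGE12J at chrX:49321787-49322086 on the plus strand, XAGE1A at chrX:52495627-52495926 on the plus strand, MAGEA3 at chrX:152698544-152698843 on the plus strand, RHOXF2 at chrX:120158363-120158662 on the plus strand and MAGEB4 at chrX:30241750-30242049 on the plus strand.
PRAME: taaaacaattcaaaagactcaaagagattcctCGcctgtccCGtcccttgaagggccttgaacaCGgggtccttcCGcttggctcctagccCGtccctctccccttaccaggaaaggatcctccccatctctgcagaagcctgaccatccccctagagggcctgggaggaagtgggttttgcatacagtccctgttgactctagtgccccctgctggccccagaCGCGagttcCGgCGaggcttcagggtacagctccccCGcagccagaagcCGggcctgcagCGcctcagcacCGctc
GAGE12J: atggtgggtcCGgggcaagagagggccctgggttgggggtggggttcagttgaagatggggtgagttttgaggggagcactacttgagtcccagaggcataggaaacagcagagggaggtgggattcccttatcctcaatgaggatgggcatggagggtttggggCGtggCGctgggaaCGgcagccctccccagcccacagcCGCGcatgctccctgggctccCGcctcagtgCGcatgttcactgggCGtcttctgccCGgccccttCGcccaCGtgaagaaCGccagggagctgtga
XAGE1A: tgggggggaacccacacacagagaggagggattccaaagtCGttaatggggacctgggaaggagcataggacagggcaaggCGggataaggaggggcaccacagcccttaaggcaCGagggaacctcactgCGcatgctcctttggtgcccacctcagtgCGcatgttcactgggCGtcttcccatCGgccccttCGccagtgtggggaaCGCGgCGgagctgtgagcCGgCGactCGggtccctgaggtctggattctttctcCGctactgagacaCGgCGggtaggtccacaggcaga
MAGEA3: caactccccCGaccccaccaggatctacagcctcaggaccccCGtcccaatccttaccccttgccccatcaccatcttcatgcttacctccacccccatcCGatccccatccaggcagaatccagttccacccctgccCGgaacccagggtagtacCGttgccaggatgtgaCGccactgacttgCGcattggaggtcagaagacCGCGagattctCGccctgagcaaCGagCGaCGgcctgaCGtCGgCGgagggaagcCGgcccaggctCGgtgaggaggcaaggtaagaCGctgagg
RHOXF2: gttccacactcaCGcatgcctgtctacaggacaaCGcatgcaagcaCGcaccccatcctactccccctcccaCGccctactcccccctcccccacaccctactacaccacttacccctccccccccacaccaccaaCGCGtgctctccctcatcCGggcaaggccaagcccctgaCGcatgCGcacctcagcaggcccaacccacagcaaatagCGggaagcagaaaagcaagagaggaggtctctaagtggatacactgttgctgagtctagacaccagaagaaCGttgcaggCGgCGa
MAGEB4: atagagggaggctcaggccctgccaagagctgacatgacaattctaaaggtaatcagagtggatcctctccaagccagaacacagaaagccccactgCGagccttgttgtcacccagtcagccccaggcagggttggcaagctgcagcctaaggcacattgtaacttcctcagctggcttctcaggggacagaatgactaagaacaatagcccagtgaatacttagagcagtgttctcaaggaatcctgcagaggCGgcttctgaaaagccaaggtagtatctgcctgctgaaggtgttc
The windows of MAGEA6, RHOXF2B and XAGE1B are identical to those of MAGEA3, RHOXF2 and XAGE1A on the opposite strand of the chromosome. Of 11 GAGE windows, 7 are identical to that of GAGE12J, its own included, so copies listed at very different levels share the same letters (GAGE12F at 580 CPM, GAGE12C at 0.000705 CPM). The lead transcript of GAGE12C differs from that of GAGE12F by 1 base, so these 2 levels depend on how reads were divided between copies.

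The longest run shared by the GAGE12J and XAGE1A windows is 30 bases long, from position 227 of the first and position 153 of the second, with CpG in capitals.
GAGE and XAGE1 run: cctcagtgCGcatgttcactgggCGtcttc
Searched on both strands, this run stood in 9 of 11 GAGE windows and in XAGE1A and XAGE1B, and in 11 of all 27304 genes with a window, or 0.0403%. It was picked by comparing these windows and is a description of the letters. The printed windows hold 13 CpG in PRAME, GAGE12J and RHOXF2, 17 in XAGE1A, 19 in MAGEA3 and 2 in MAGEB4. Over the 57 members with a window within 1000 bases of an annotated start, the 36 averaging at least 1 CPM had a median of 13 CpG and the 21 below 1 CPM had a median of 9, against 14 over all 35114 windows. Copies with identical windows were counted separately here, among them 7 of the 11 GAGE windows. The split at 1 CPM also uses single-copy levels, which depend on how reads were divided. Exceptions ran both ways: MAGEA11 had 21 CpG and 0 reads, while SSX1 had 5 CpG and 86.2 CPM. The letters CCGGAA, the core of an ETS factor motif, stood on either strand in 4 of the 36 windows and in 0 of the 21, against 17.2% of all windows. A match is a description of these letters only.

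Levels of the families were spread over a wide range and were present in every library. Together the sums with PRAME and RHOXF2 took 0.432% of the reads in genes, or 4297 ± 364 CPM (SD, n = 17). The lowest total was 3588 CPM in GFP, the median 4473 CPM and the highest 4829 CPM in COL6A6. Per length, in the deposited TPM, a length-corrected unit, the mean levels were 5990 for GAGE, 458 for XAGE, 243 for PAGE, 144 for PRAME, 42.9 for MAGEA, 31.5 for SSX, 22.8 for RHOXF2 with its copy RHOXF2B, 14.7 for MAGEB, 10.6 for CT45 and 5.27 for MAGEC. From MAGEA downwards each group overlapped the next in this order within 1 SD over 17 libraries, with SDs of 9.48 TPM for MAGEA, 8.45 for SSX, 3.62 for RHOXF2 with RHOXF2B, 4.75 for MAGEB, 4.66 for CT45 and 1.84 for MAGEC. Of the GAGE value, 4082 TPM came from GAGE12B alone, whose annotated transcript has 117 nt. In 3′ tag reads a division by length raises short transcripts, so the values below are CPM.

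**Figure D1:**
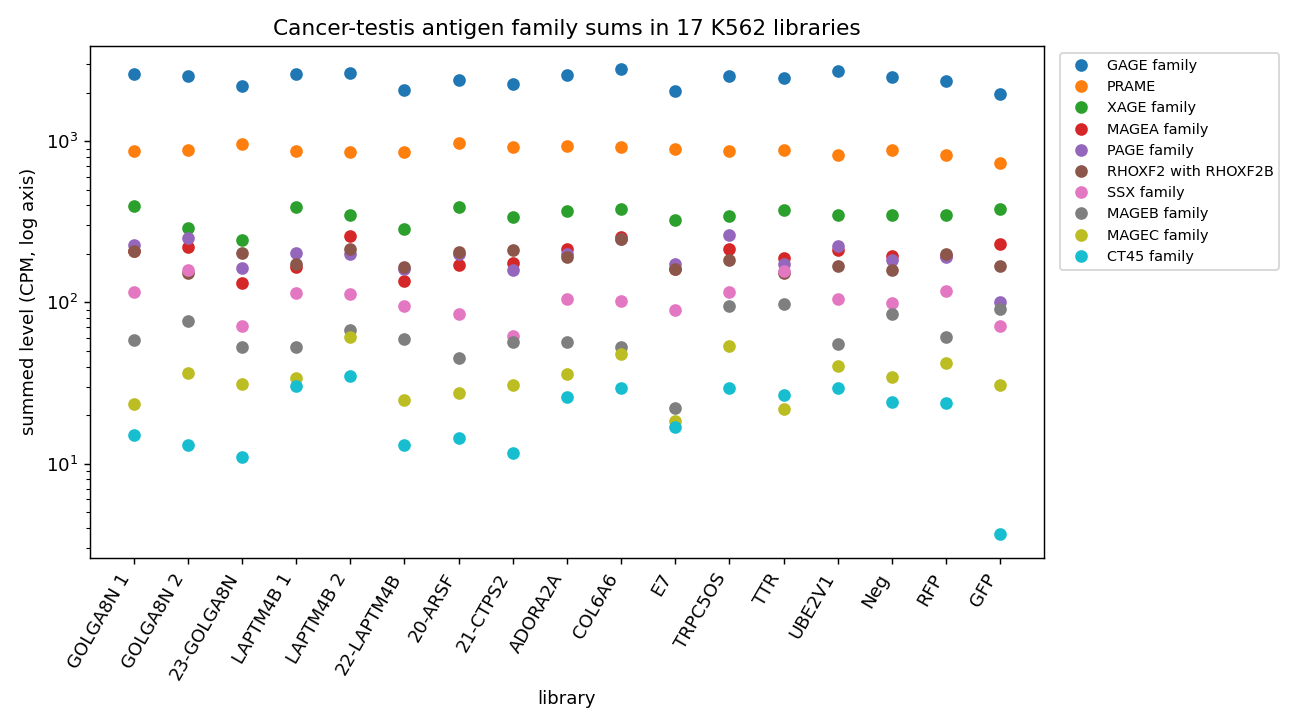
Summed CPM (log axis) of the 8 families, PRAME and RHOXF2 with RHOXF2B in each of 17 libraries, GOLGA8N and LAPTM4B libraries at the left and the reference libraries Neg, RFP and GFP at the right. GAGE runs from 1949 to 2795 CPM, and CT45 has its lowest point, 3.64 CPM, in GFP.

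In relative terms PRAME was the steadiest, with a coefficient of variation (SD over mean) of 6.23% across the 17 libraries, followed by GAGE at 10.1% and XAGE at 11.9%. RHOXF2 with RHOXF2B varied by 14.6%, MAGEA by 18.6%, PAGE by 20.5%, SSX by 25.2%, MAGEB by 30.7%, MAGEC by 32.5% and CT45 by 43.1%.

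GAGE, a family of small proteins encoded by a tandem array on chromosome X, made up the larger share of these reads. Its sum averaged 2429 ± 245 CPM (SD, n = 17), with 1949 CPM in GFP, a median of 2515 CPM and 2795 CPM in COL6A6. Of 13 annotated copies, 10 had at least 1 read. GAGE12F took 23.9% of the reads (580 ± 66.1 CPM; SD, n = 17), GAGE12J 22.2% (532 ± 94.8 CPM), GAGE12G 20.4% (495 ± 54.6 CPM) and GAGE12B 19.0% (467 ± 73.5 CPM). GAGE1 followed with 6.15% (148 ± 33.2 CPM), GAGE13 with 4.67% (112 ± 103 CPM) and GAGE2A with 3.1% (77.9 ± 36.5 CPM). GAGE12E averaged 8.86 CPM, GAGE10 4.93 CPM and GAGE12H 2.52 CPM, while GAGE12C and GAGE12D shared 0.0331 reads each and GAGE2E had 0.

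These single-copy values depend on how the quantifier divided reads between near-identical transcripts. GAGE12F and GAGE12G have an identical transcript of 527 nt, which received 25122 and 25108 reads. The last 300 nt of GAGE12F and GAGE12G each differ from GAGE12J by 1 base, and those of GAGE13 by 6. GAGE13 was the copy that moved most among those over 100 CPM. It had 364 CPM in LAPTM4B 2, 268 in COL6A6 and 217 in TTR, against 1.25 CPM in E7, 1.11 in 22-LAPTM4B and 0 in GFP, a coefficient of variation of 91.8%. GAGE12E had reads in 6 of 17 libraries, 68.0 CPM in TRPC5OS, 24.4 in 21-CTPS2, 17.8 in Neg, 16.7 in 23-GOLGA8N, 16.2 in GOLGA8N 2 and 7.66 in RFP. GAGE12H had reads in 4, with 18.2 CPM in ADORA2A and 11.1 CPM in GOLGA8N 1 as the highest. The family sum had a coefficient of variation of 10.1% across the same libraries.

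**Figure D2:**
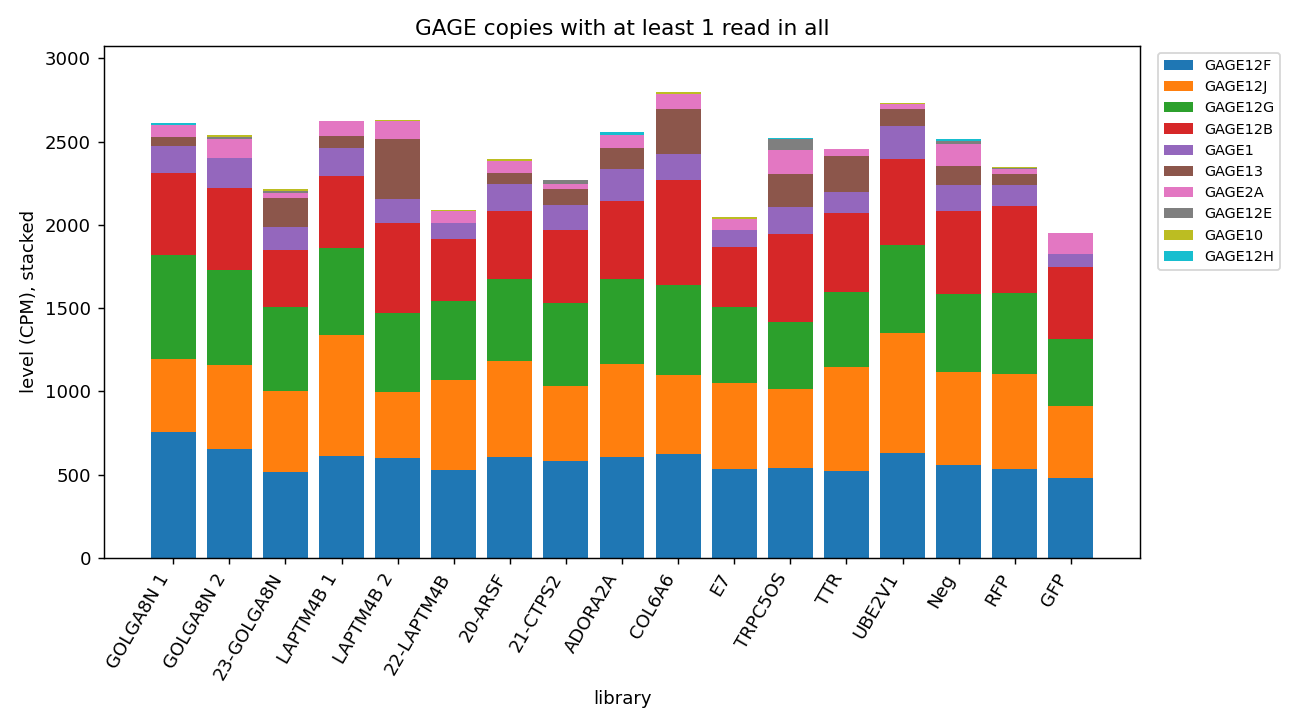
CPM of the 10 GAGE copies with at least 1 read, stacked per library, GOLGA8N and LAPTM4B libraries at the left and reference libraries at the right. The 4 large blocks GAGE12F, GAGE12J, GAGE12G and GAGE12B stand in all 17 libraries, while GAGE13 runs between 0 in GFP and 364 CPM in LAPTM4B 2.

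XAGE, a family of small proteins related to GAGE, averaged 346 ± 41.1 CPM (SD, n = 17), lowest in 23-GOLGA8N (245 CPM), with a median of 349 CPM and highest in GOLGA8N 1 (394 CPM). Nearly all of it came from the copies XAGE1B (223 ± 24.9 CPM; SD, n = 17) and XAGE1A (123 ± 22.7 CPM). They hold 4 pairs of identical transcripts, among them one of 474 nt that received 2902 reads in each copy, so the split between them is not a measurement. A transcript of 472 nt annotated to XAGE1B alone received 5078 reads. XAGE5 had 2.35 reads in all, and XAGE2 and XAGE3 had 0.

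PAGE, the prostate-associated relatives of GAGE, averaged 195 ± 39.9 CPM (SD, n = 17). PAGE5 supplied most of it at 178 ± 34.6 CPM (SD, n = 17), with 87.3 CPM in GFP, a median of 179 CPM and 230 CPM in TRPC5OS. Its transcript of 428 nt took 70.0% of its reads. PAGE1 averaged 13.4 ± 7.22 CPM and reached 28.1 CPM in COL6A6. PAGE2B averaged 1.88 CPM, PAGE4 1.16 CPM and PAGE2 0.661 CPM, and PAGE3 had 0 reads.

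MAGEA genes, which encode adaptors of RING ubiquitin ligases, averaged 196 ± 36.5 CPM in sum (SD, n = 17), with 132 CPM in 23-GOLGA8N, a median of 195 CPM and 258 CPM in LAPTM4B 2. MAGEA3, a partner of the ligase TRIM28, averaged 102 ± 33.6 CPM and its copy MAGEA6 34.6 ± 16.3 CPM. The lead transcripts of the pair differ at 2 of their last 300 nt. MAGEA6 had 0 reads in TRPC5OS, where MAGEA3 stood at 156 CPM, and MAGEA6 exceeded MAGEA3 only in 23-GOLGA8N, with 73.7 against 25.1 CPM. The coefficient of variation was 32.8% for MAGEA3 and 47.2% for MAGEA6, but 18.1% for their sum of 137 ± 24.8 CPM. MAGEA12 averaged 21.5 CPM, MAGEA2 11.8, MAGEA9B 11.4, MAGEA1, the first human tumour antigen of this class, 7.67, MAGEA8 4.2 and MAGEA4 1.81 CPM. MAGEA10 averaged 0.400 CPM, MAGEA9 had 0.841 reads and MAGEA2B 1 read, and MAGEA11 had 0. MAGEA9B and MAGEA9 differ at 1 of their last 300 nt.

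**Figure D3:**
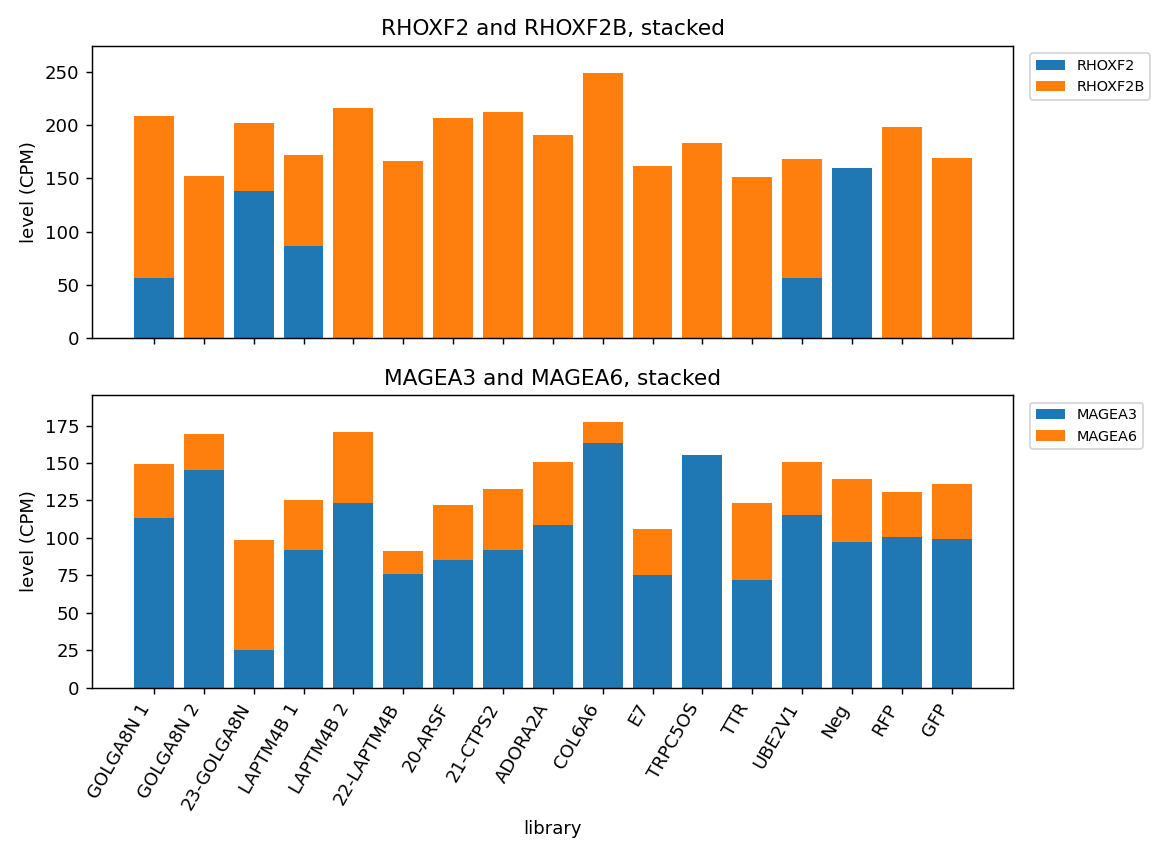
CPM of RHOXF2 and RHOXF2B (upper panel) and of MAGEA3 and MAGEA6 (lower panel), stacked per library, GOLGA8N and LAPTM4B libraries at the left and reference libraries at the right. The stacks run from 151 to 249 CPM for the first pair and from 91.4 to 177 CPM for the second, while the split within a stack shifts from library to library.

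MAGEB genes form a second cluster on the short arm of chromosome X. Their sum averaged 63.9 ± 19.6 CPM (SD, n = 17), with 22.2 CPM in E7, a median of 58.6 CPM and 98.1 CPM in TTR. MAGEB2 supplied most at 54.5 ± 15.9 CPM (SD, n = 17) and was at 19.7 CPM in E7. MAGEB1 averaged 6.1 CPM, MAGEB10 1.82 CPM with 12.95 CPM in TTR, and MAGEB6 1.26 CPM, mostly from GFP (18.2 CPM). MAGEB3 had 6 reads and MAGEB16 and MAGEB4 1 each. MAGEB5, MAGEB6B, MAGEB17 and MAGEB18 had 0. MAGEC genes encode further proteins with the MAGE domain, and their sum averaged 35.0 ± 11.4 CPM (SD, n = 17), with 18.4 CPM in E7, a median of 33.9 CPM and 61.3 CPM in LAPTM4B 2. MAGEC2 averaged 23.7 ± 7.93 CPM and MAGEC1 11.3 ± 4.84 CPM, and MAGEC3 had 0 reads.

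PRAME (ENSG00000185686, GRCh38 chromosome 22, 22547701 to 22559361, minus strand) averaged 878 ± 54.7 CPM (SD, n = 17). It had 734 CPM in GFP, a median of 879 CPM and 968 CPM in 20-ARSF. A single transcript of 2196 nt took 97.5% of its reads. Without GFP every library lay between 821 CPM in UBE2V1 and 968 CPM.

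RHOXF2 (ENSG00000131721, GRCh38 chromosome X, 120158561 to 120165630, plus strand) could be read only together with its inverted copy RHOXF2B (ENSG00000203989, chromosome X, 120070672 to 120077705, minus strand), which the symbol rule leaves out. Listed alone, RHOXF2 had 159 CPM in Neg, 138 in 23-GOLGA8N, 86.3 in LAPTM4B 1, 56.9 in UBE2V1 and 56.7 in GOLGA8N 1, and under 1 read in the other 12 libraries. RHOXF2B had under 1 read in Neg alone. The sum of the copies averaged 186 ± 27.1 CPM (SD, n = 17), with 151 CPM in TTR, a median of 183 CPM and 249 CPM in COL6A6. The coefficient of variation was 179% for RHOXF2 and 39.6% for RHOXF2B alone, and 14.6% for the sum. The copies differ at 1 of their last 300 nt, which are the ones a 3′ tag mostly reads.

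SSX averaged 105 ± 26.4 CPM (SD, n = 17), with 61.7 CPM in 21-CTPS2, a median of 105 CPM and 160 CPM in GOLGA8N 2. SSX1, one of the fusion partners of SS18 in synovial sarcoma, made up most of it at 86.2 ± 20.6 CPM (SD, n = 17). SSX2, another such partner, averaged 11.5 CPM and its copy SSX2B 2.98 CPM, which was 21.9 CPM in ADORA2A and 15.6 CPM in UBE2V1 and 0 in 12 libraries. SSX4 and SSX4B received equal reads in all 17 libraries (1.67 CPM each), and their transcripts are identical. SSX5 had 13.1 reads, SSX3 10.1 and SSX7 2.07. SSX2IP, the binding protein, averaged 24.95 ± 7.76 CPM (SD, n = 17). CT45, a cluster of genes for nuclear proteins, averaged 20.8 ± 8.96 CPM (SD, n = 17), with 3.64 CPM in GFP on 2 reads, a median of 23.8 CPM and 34.9 CPM in LAPTM4B 2. CT45A2 averaged 6.63 CPM, CT45A8 and CT45A9, with identical transcripts, 5.75 CPM each, and CT45A10 1.38 CPM. CT45A6 averaged 0.926 CPM with at most 5.93 CPM in a library, CT45A3 had 10.9 reads, and CT45A5 and CT45A7 had 0. CT45A1 was listed at 4.11e-06 reads.

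Of the 73 genes, 42 averaged at least 1 CPM, 30 at least 5 CPM and 11 at least 100 CPM, and 14 had exactly 0 reads. A count of 0 reads allows up to 3 reads, or 0.734 CPM, in the deepest library and covers counting error only. MAGEA4-AS1 averaged 0.654 CPM with at most 5.19 CPM, and MAGEA8-AS1 and MAGEA10-MAGEA5 had 0 reads. Whether counting used strand is not stated in the sources at hand, and reads of an antisense RNA and its partner cannot be told apart.

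Across libraries, 2 of 45 pairs of these sums moved together past an adjusted p of 0.05 in both measures. GAGE and PAGE correlated with r = 0.80 (permutation p = 1e-04, adjusted 0.0045) and rho = 0.78 (permutation p = 0.00038, adjusted 0.0166) over 17 libraries. Without the 2 libraries farthest from the GAGE median r was 0.72, and within the 13 unprefixed libraries it was 0.77. GAGE and CT45 correlated with r = 0.75 (permutation p = 0.00055, adjusted 0.0124) and rho = 0.75 (permutation p = 0.00074, adjusted 0.0166), with r = 0.69 without the 2 farthest libraries and 0.70 within the unprefixed ones. GFP, the shallowest library, was lowest in GAGE, PAGE and CT45, and without it r was 0.72 for GAGE with PAGE and 0.67 for GAGE with CT45. Other pairs moved up without GFP, to r = 0.80 for GAGE with MAGEA (0.55 with it) and 0.70 for PAGE with MAGEA (0.39 with it), so which pairs stand out depends on that library. MAGEA and MAGEC reached r = 0.66 (permutation p = 0.00367, adjusted 0.055). The 4 prefixed libraries are too few for a value of their own. All sums of a library share its depth and scaling, whose part in these correlations was not tested.

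Several large ratios of 1 library to the others belonged to copies that share reads. MAGEB6, whose counts were all whole, had 18.2 CPM in GFP, the shallowest library, and a median of 0 CPM over all libraries. It had 21 reads in all. MAGEB10 had 12.95 CPM in TTR and a median of 0 CPM. Its estimated counts were not whole in 6 of the 8 libraries with reads, so its reads may also have been divided. Besides RHOXF2, GAGE12E, GAGE12H, GAGE13 and SSX2B above, CT45A2 had 24.6 CPM in LAPTM4B 1 and 23.5 CPM in TRPC5OS, against a median of 3.38 CPM in the other libraries. MAGEA2 had 27.7 CPM in LAPTM4B 2, against a median of 10.7 CPM elsewhere, and SSX2 27.0 CPM in GOLGA8N 1 and 26.45 CPM in TTR, against a median of 9.94 CPM. MAGEA1 had 16.95 CPM in ADORA2A and 16.4 CPM in GFP, against a median of 6.09 CPM elsewhere. In E7 and 22-LAPTM4B no member at 10 CPM or more reached 1.5 times the median of the other libraries. With 1 library under each of these labels there is no test.

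GOLGA8N libraries were set against the reference libraries to ask whether the antigens differed with that label. Of 32 members that passed the filter on low counts, edgeR's quasi-likelihood test called 0 at an adjusted p under 0.05, and so did DESeq2 and limma-voom, where 0.0168% of all 11916 genes were called by edgeR. Of the 8 family sums 0 were called by any of the 3 tools, against 0.0168% of 11895 genes and sums. At an unadjusted p under 0.05 there were 4 members, and 5.68% of all genes. GAGE12F and GAGE12G, which have an identical transcript, were both among these members. The median log2 fold change of the 32 members was 0.07, against 0.01 over all genes, and 22 were higher and 10 lower. The filter decides which members are in that count. The log2 fold changes of every comparison carry edgeR's scaling (TMM) and the CPM do not, so these can differ in size and sign. Counts of members higher and lower follow the fold changes. MAGEA averaged 188 CPM in GOLGA8N libraries and 206 CPM in reference libraries, while its log2 fold change was 0.02.

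PAGE stood at 226 CPM in GOLGA8N 1, 249.9 CPM in GOLGA8N 2 and 164 CPM in 23-GOLGA8N, against 184, 190.0 and 100.03 CPM in Neg, RFP and GFP. The ranges overlapped, with 23-GOLGA8N below Neg and RFP, and the log2 fold change was 0.55 ± 0.23 (SE; edgeR adjusted p = 0.847). Its main member PAGE5 had 207, 225 and 158 CPM in the GOLGA8N libraries, against 160.0, 172 and 87.3 CPM in Neg, RFP and GFP (0.60 ± 0.24; edgeR adjusted p = 0.794). GAGE had 2613, 2541 and 2214 CPM in the GOLGA8N libraries, against 2515, 2349 and 1949 CPM in the reference libraries, and its log2 fold change was 0.26 ± 0.13 (SE; edgeR adjusted p = 0.892). The lowest p among members belonged to GAGE12G, with 623, 569 and 501 CPM against 467, 491 and 403 CPM in Neg, RFP and GFP. Its arms did not overlap, and its log2 fold change was 0.46 ± 0.15 (SE; edgeR adjusted p = 0.7). GAGE12G has an identical transcript with GAGE12F, so its level depends on how reads were divided between copies. GAGE12F had 757, 650 and 514 CPM against 557, 535 and 482 CPM in Neg, RFP and GFP, and these ranges overlapped.

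PRAME stood at 874 CPM in GOLGA8N 1, 884 CPM in GOLGA8N 2 and 954 CPM in 23-GOLGA8N, against 879, 825 and 734 CPM in Neg, RFP and GFP. GOLGA8N 1 lay below Neg, and the log2 fold change was 0.30 ± 0.13 (SE; edgeR adjusted p = 0.851). The sums of the other families had log2 fold changes of 0.38 ± 0.27 for SSX, 0.02 ± 0.23 for MAGEA, -0.05 ± 0.19 for XAGE, -0.11 ± 0.37 for MAGEC, -0.16 ± 0.26 for MAGEB and -0.38 ± 0.54 for CT45. MAGEA turned to -0.0096 with the size factors of DESeq2 and to -0.0081 with DESeq2 itself. For RHOXF2 with RHOXF2B the GOLGA8N mean was 187 ± 30.4 CPM and the reference mean 176 ± 20.4 CPM (SD, n = 3 each), a log2 fold change of 0.24 ± 0.20. Listed alone, RHOXF2 gave 0.32 ± 2.53, which rests on the division of reads between the copies.

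The other members averaging at least 5 CPM had these log2 fold changes between GOLGA8N and reference libraries, none with an edgeR adjusted p under 0.77. GAGE12F gave 0.44 ± 0.16, GAGE1 0.51 ± 0.25, GAGE12J 0.03 ± 0.19, GAGE12B 0.02 ± 0.18, GAGE2A -0.26 ± 0.54, GAGE13 0.34 ± 1.99 and GAGE12E 0.37 ± 1.22 (SE). XAGE1B gave 0.12 ± 0.19 and XAGE1A -0.37 ± 0.25, while MAGEA6 gave 0.45 ± 0.43, MAGEA3 0.08 ± 0.46, MAGEA12 -0.50 ± 0.50, MAGEA2 -0.33 ± 0.62, MAGEA9B 0.02 ± 0.58 and MAGEA1 -1.13 ± 1.09. SSX1 gave 0.30 ± 0.26, SSX2 0.82 ± 0.92, PAGE1 0.09 ± 0.68, MAGEB1 0.03 ± 1.0103, MAGEC2 -0.13 ± 0.42, MAGEC1 -0.07 ± 0.61, CT45A2 -0.84 ± 1.19 and CT45A8 with CT45A9 -0.15 ± 1.22 each. SSX2IP gave 0.06 ± 0.44. MAGEB2 had a log2 fold change of 4.71e-05 ± 0.23. GAGE13, GAGE12E, MAGEA1, MAGEB1, CT45A2, CT45A8 and CT45A9 had SEs over 1, so only large changes of them could have been seen.

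**Figure D4:**
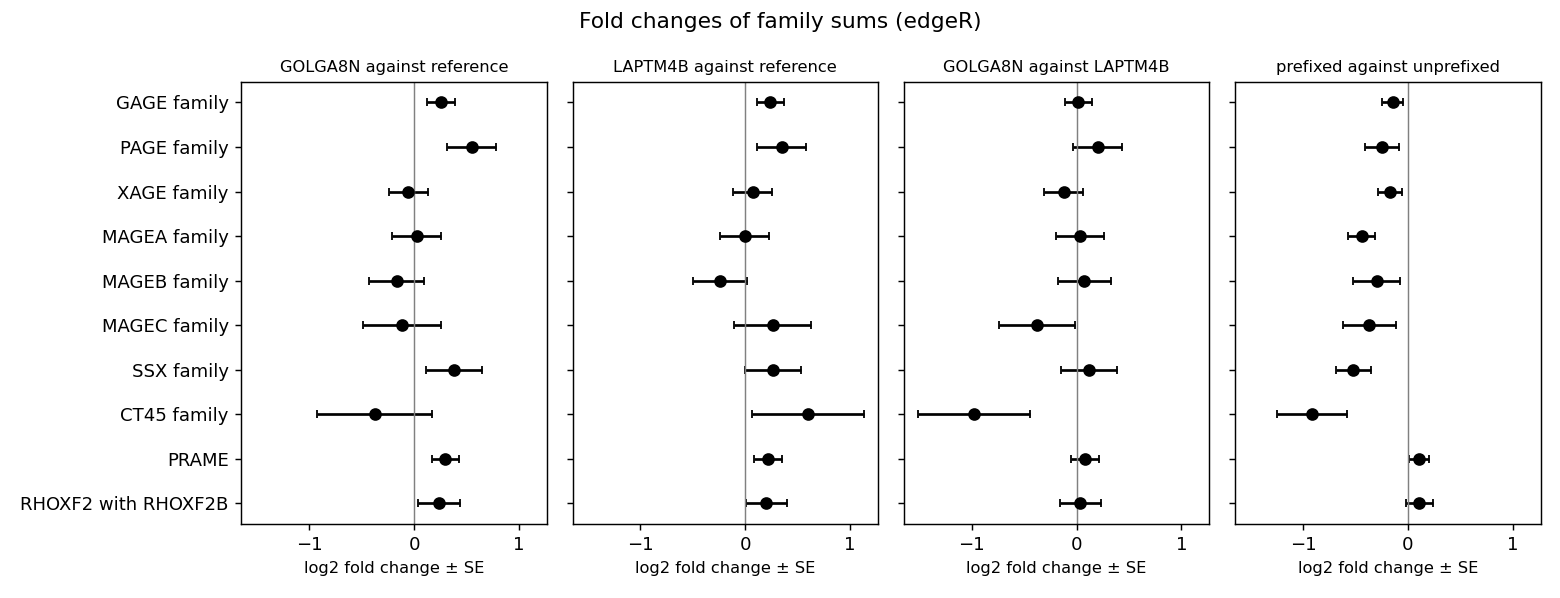
Log2 fold changes (edgeR) of the 8 family sums, PRAME and RHOXF2 with RHOXF2B in 4 comparisons, with SE as bars and 0 as the grey line. In the last panel all 8 family sums lie left of 0, from -0.14 for GAGE to -0.91 for CT45, while PRAME lies at 0.11.

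LAPTM4B libraries were compared with the same reference libraries, so both comparisons move with Neg, RFP and GFP. Of 32 members 0 were called by edgeR, DESeq2 or limma-voom, where edgeR called 0% of all 11916 genes and 0% of the 11895 genes and sums, and of the 8 sums 0 were called. At an unadjusted p under 0.05 there was 1 member, against 3.94% of all genes. The members' median log2 fold change was 0.13, against 0.02 over all genes. PAGE had 202, 199 and 161 CPM in LAPTM4B 1, LAPTM4B 2 and 22-LAPTM4B, against 184, 190.0 and 100.03 CPM in Neg, RFP and GFP (0.35 ± 0.23). GAGE had 2622, 2630 and 2087 CPM, against 2515, 2349 and 1949 CPM in the reference libraries (0.24 ± 0.13). PRAME had 866, 854 and 857 CPM, between the reference values of 879 CPM in Neg and 825 CPM in RFP, with 734 CPM in GFP (0.22 ± 0.13). CT45 gave 0.60 ± 0.53, SSX 0.27 ± 0.27, MAGEC 0.26 ± 0.37, XAGE 0.07 ± 0.19, MAGEA -0.01 ± 0.23 and MAGEB -0.24 ± 0.26, all on the log2 scale with SE. RHOXF2 with RHOXF2B gave 0.20 ± 0.20, and RHOXF2 alone -0.85 ± 2.56. The edgeR adjusted p of every sum was 1 when rounded. Among single members 22 were higher and 10 lower, with 0.40 ± 0.23 for PAGE5, 0.28 ± 0.16 for GAGE12F, 0.25 ± 0.15 for GAGE12G and 1.23 ± 1.15 for CT45A2.

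GAGE12E was the member at p under 0.05. It had 0 reads in the 3 LAPTM4B libraries, against 17.8 CPM in Neg, 7.66 CPM in RFP and 0 in GFP. Against a floor of 3 reads per library, the listed mean of the LAPTM4B libraries was at least 9.82-fold lower than that of the reference libraries. That floor covers counting error only, not the division of reads between copies. Without the filter on low counts this copy was called (edgeR adjusted p = 0.00366), where 0.102% of all 24448 genes were, against an adjusted p of 1 with the filter. GAGE12E differs from GAGE12J at 7 of its last 300 nt, and from GAGE12F and GAGE12G by 4 bases over its whole transcript of 520 nt. Its level therefore depends on how reads were divided between copies. The GAGE sum was not called in any alternative run for this comparison.

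GOLGA8N libraries were also set directly against LAPTM4B libraries. edgeR called 0 of 32 members and 0 of 8 sums, where it called 0.00839% of all genes and 0.00841% of the genes and sums, and DESeq2 and limma-voom called 0 as well. There was 1 member at an unadjusted p under 0.05, against 2.04% of all genes, and 16 members were higher and 16 lower. CT45 stood apart most in size, with 15.1 CPM in GOLGA8N 1, 12.99 CPM in GOLGA8N 2 and 11.04 CPM in 23-GOLGA8N, against 30.5, 34.9 and 13.02 CPM in LAPTM4B 1, LAPTM4B 2 and 22-LAPTM4B. The prefixed LAPTM4B library lay among the GOLGA8N values, and the log2 fold change was -0.98 ± 0.54 (SE; edgeR adjusted p = 1 when rounded). The other sums ran from -0.37 ± 0.36 for MAGEC to 0.20 ± 0.23 for PAGE. PRAME gave 0.08 ± 0.13, RHOXF2 with RHOXF2B 0.04 ± 0.19 and RHOXF2 alone 1.17 ± 2.57. GAGE12E had 0, 16.2 and 16.7 CPM in the GOLGA8N libraries, against 0 reads in all 3 LAPTM4B libraries. Its listed mean was at least 12.7-fold higher against the floor of 3 reads per library, which covers counting error only. It was called without the filter on low counts (edgeR adjusted p = 0.00223), where 0.0368% of all genes were. Here too its level depends on how reads were divided between GAGE copies.

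The sums of all 8 families had lower means in prefixed than in unprefixed libraries and PRAME had a higher one, but none passed the adjusted threshold in edgeR. Of 34 members tested 0 were called by edgeR, DESeq2 or limma-voom, where edgeR called 0.276% of all 12319 genes. Of the 8 sums 0 were called by edgeR and limma-voom, where edgeR called 0.285% of 12296 genes and sums. At an unadjusted p under 0.05 there were 11 of 34 members (32.4%), against 9.38% of all genes. Of the members 27 were lower and 7 higher in prefixed libraries, with a median log2 fold change of -0.34, against -0.02 over all genes, of which 52.4% were lower. Members of a family share reads and are not independent of each other. The plasmid genes are not balanced over the prefix, so differences that go with either cannot be told apart in this fit.

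MAGEA had 132, 135, 169 and 175 CPM in 23-GOLGA8N, 22-LAPTM4B, 20-ARSF and 21-CTPS2, against a lowest value of 161, a median of 212 and a highest of 258 CPM in the 13 unprefixed libraries. All 4 lay below the unprefixed median, and the ranges overlapped through E7 (161 CPM) and LAPTM4B 1 (166 CPM). The log2 fold change was -0.44 ± 0.13 (SE; edgeR adjusted p = 0.19). DESeq2 gave the same size and called it (-0.44, DESeq2 adjusted p = 0.0302), the 1 family it called, where it called 0.911% of all genes and sums. Leaving out each prefixed library or GFP in turn, the log2 fold change ran from -0.49 to -0.38.

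SSX had 71.3, 95.4, 84.3 and 61.7 CPM in 23-GOLGA8N, 22-LAPTM4B, 20-ARSF and 21-CTPS2, against 70.9 to 160 CPM with a median of 112 CPM in unprefixed libraries (-0.52 ± 0.17 on the log2 scale; edgeR adjusted p = 0.249). CT45 had 11.04, 13.02, 14.4 and 11.6 CPM in the prefixed libraries, against 3.64 to 34.9 CPM with a median of 25.9 CPM in unprefixed ones (-0.91 ± 0.33; edgeR adjusted p = 0.322). The shallow GFP library gave the lowest unprefixed value in both. GAGE averaged 2241 ± 127 CPM in prefixed libraries (SD, n = 4) and 2487 ± 246 CPM in unprefixed ones (SD, n = 13), and again all 4 prefixed values lay below the unprefixed median. MAGEB and MAGEC also had all 4 below that median, and PAGE and XAGE had 3 of 4. Their log2 fold changes were -0.37 ± 0.25 for MAGEC, -0.30 ± 0.22 for MAGEB, -0.24 ± 0.16 for PAGE, -0.17 ± 0.12 for XAGE and -0.14 ± 0.10 for GAGE.

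PRAME averaged 923 ± 49.9 CPM in prefixed libraries (SD, n = 4) and 864 ± 49.6 CPM in unprefixed ones (SD, n = 13), with 1 of 4 below the unprefixed median (0.11 ± 0.09; edgeR adjusted p = 0.822). RHOXF2 with RHOXF2B averaged 197 ± 20.9 CPM in prefixed libraries (SD, n = 4) and 183 ± 28.7 CPM in unprefixed ones (SD, n = 13; 0.11 ± 0.13), also with 1 of 4 below the median. SSX2IP, no antigen of this kind, averaged 33.4 ± 6.42 CPM in prefixed libraries (SD, n = 4) and 22.4 ± 6.26 CPM in unprefixed ones (SD, n = 13) (0.57 ± 0.24; edgeR adjusted p = 0.432).

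**Figure D5:**
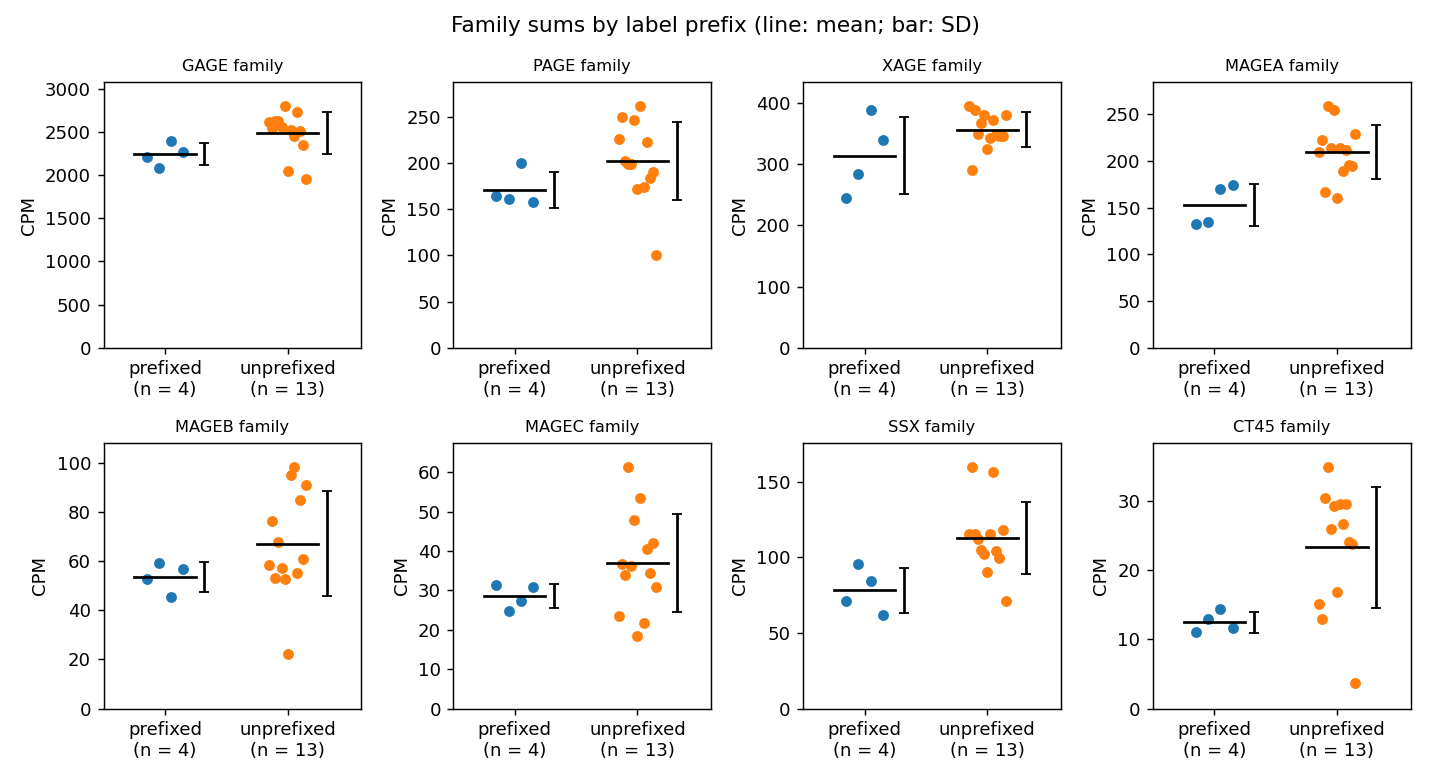
CPM of the 8 family sums in prefixed (left, n = 4) and unprefixed (right, n = 13) libraries, each point a library, the line the mean and the bar beside it the SD. Prefixed MAGEA values of 132 to 175 CPM lie below the unprefixed median of 212 CPM, with overlap at the lower end.

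Single members had these values. MAGEA12 averaged 12.8 ± 2.91 CPM in prefixed libraries and 24.2 ± 6.99 CPM in unprefixed ones (-0.88 ± 0.30; edgeR adjusted p = 0.271). XAGE1A averaged 95.5 ± 25.3 CPM and 132 ± 13.8 CPM in these groups (-0.45 ± 0.14; edgeR adjusted p = 0.241), while its copy XAGE1B gave -0.03 ± 0.12. The split between these copies is not a measurement. Their sum averaged 314 ± 62.5 CPM in prefixed libraries and 356 ± 28.6 CPM in unprefixed ones. MAGEA3 averaged 69.5 ± 30.4 CPM in prefixed libraries and 112 ± 28.4 CPM in unprefixed ones (-0.68 ± 0.25; edgeR adjusted p = 0.366), and its copy MAGEA6 gave 0.35 ± 0.53. The sum of that pair averaged 111 ± 19.3 CPM in prefixed libraries and 145 ± 20.8 CPM in unprefixed ones. PAGE1 gave -1.09 ± 0.46, SSX1 -0.36 ± 0.18, SSX2 -1.34 ± 0.63, MAGEA9B -0.81 ± 0.40 and GAGE12B -0.32 ± 0.12, with edgeR adjusted p of 0.324 to 0.522. Without the filter on low counts edgeR called GAGE12H, CT45A2 and MAGEA3 (edgeR adjusted p = 0.0306 for each), where 2.08% of all 26798 genes were called. GAGE12H had 0 reads in all 4 prefixed libraries. Against the floor of 3 reads per library, which covers counting error only, that was at least 3.23-fold below the unprefixed mean of 3.29 CPM. That mean rests on 4 libraries with reads, and the other unprefixed libraries had 0 too. Its lead transcript differs from that of GAGE12F by 2 bases, so its level depends on how reads were divided between copies. Without that filter the GOLGA8N comparison with the reference libraries still had 0 members called, where 0.172% of all genes were.

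The prefixed libraries also differed in an erythroid marker. HBE1, the embryonic globin, averaged 813 ± 188 CPM in prefixed libraries (SD, n = 4) and 459 ± 87.0 CPM in unprefixed ones (SD, n = 13; 0.82 ± 0.15, edgeR adjusted p = 0.0174), and it was the only called gene of the lists examined. Over the list of 10 K562 markers 5 were higher, with a median log2 fold change of 0.01, and the summed level ran from 6321 to 9339 CPM in prefixed libraries, against 5513 to 10064 CPM in unprefixed ones. The part of HBE1 in the antigen sums was not tested. In bulk RNA, fewer expressing cells and less RNA per cell cannot be told apart.

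Other genes of the same biology were read from lists. Of 86 other cancer-testis genes present in the files, 27 had 0 reads in every library, 35 averaged over 1 CPM and 0 of 32 tested were called in any of the 4 comparisons by edgeR. In these comparisons edgeR called from 0% to 0.276% of all genes, so 0 called says little about lists of this size, here and below. CTAG2, a relative of the antigen NY-ESO-1, stood at 393 ± 31.7 CPM (SD, n = 17), with CTCFL, the germ line relative of CTCF, at 43.0 CPM and CSAG1 at 41.4 CPM, while CTAG1B averaged 0.257 CPM. In the GOLGA8N comparison the genes of lowest p on this list were SAGE1 (-1.97 ± 0.74), ODF2 (-0.69 ± 0.32), MPHOSPH10 (-0.98 ± 0.49) and CSAG1 (0.62 ± 0.32), with edgeR adjusted p of 0.774 to 0.899. All 47 silencing genes (DNA methyltransferases, Polycomb and other repressors) were expressed and 0 were called, led in p by RING1 (0.79 ± 0.40) and DAXX (1.16 ± 0.65).

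Partners of the antigens were present as well. For PRAME, the cullin adaptor ELOB stood at 372 CPM, RBX1 at 164 CPM, EZH2 at 68.5 CPM and the receptor RARA at 26.3 CPM, and 0 of 21 tested partners were called in any comparison. For MAGE proteins, TRIM28 stood at 269 CPM, DDB1 at 164 CPM and USP7 at 68.8 CPM, with 0 of 18 called. For SSX, SMARCA4 stood at 147 CPM, BMI1 at 46.1 CPM and SS18 at 34.6 CPM, with 0 of 14 called. As edgeR called at most 0.276% of all genes in a comparison, these counts of 0 say little about the partners. Of 24 RHOX and PRAME-family genes outside the members 22 had 0 reads, and 1, RHOXF2B, averaged over 1 CPM. In the GOLGA8N comparison FEM1A (-0.96 ± 0.38), PRKAA1 (-1.45 ± 0.73) and SMARCB1 (1.41 ± 0.52) had the lowest p of the PRAME, MAGE and SSX partner lists, with edgeR adjusted p of 0.771 to 0.891.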

How the data were processed

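The 17 libraries were 3′ tag libraries (QuantSeq) made from total RNA with oligo-dT primers that carry molecular identifiers, per the labels' protocols. The deposited values were estimated counts and TPM per transcript, in columns as written by the quantifier Salmon, according to their header (per the file headers). Tools named in the submitters' processing notes are UMI-tools, STAR, featureCounts and Salmon 0.7.2, and the build is GRCh38 (hg38). No role or order is given, so whether identifiers were collapsed, and on which strand reads were counted, is not given. Where they were not collapsed, reads are not independent molecules, and floors cover counting error only.

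Transcripts were summed to genes with GENCODE 29, which left 3.32 to 3.6% of reads without a gene, and CPM was taken over reads in genes. Family sums hold protein-coding genes. For tests the summed estimated counts were rounded. edgeR 4.0.16 (R 4.3.3) ran its quasi-likelihood test with TMM scaling and filterByExpr over all genes, or over genes with family members replaced by their sum. The p-values were adjusted over the whole table (Benjamini-Hochberg), and called means an adjusted p under 0.05. The SE was taken as the log2 fold change over the square root of F. The 3 arms were fitted together on 9 libraries and the prefix on 17. Alternatives were other size factors, no filter, DESeq2 1.42.0, limma-voom 3.58.1, other sets of libraries and a replicate block. Correlations used 100000 permutations (scipy 1.17.1, Python 3.11.15). Tested on simulated counts for GOLGA8N against reference over 11916 genes, 1 of 50 genes with a true fold of 1.5 was found, 6 of 50 with a fold of 2 and 36 of 50 with a fold of 4. For prefixed against unprefixed over 12319 genes these numbers were 7, 18 and 38. The changed genes were drawn from all tested genes, and no division of reads between copies was simulated. These rates are therefore not those of the family sums or of single copies.

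Members, gene lists and tests were chosen with earlier results of these data known. Named were PRAME, RHOXF2, the family sums, members averaging at least 1 CPM or reaching 5 CPM in a library, and, for each other list, the tested genes of lowest p in GOLGA8N against reference, 4 at most, and any called. For single libraries, members at 10 CPM or more with the largest ratios to the median elsewhere were named, 3 at most. Promoters came from RefSeq (GRCh38.p14), kept within 1000 bases of a GENCODE start, which left 12 members without one. Columns of per-sample values not used numbered 0.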

Additional observations from a re-analysis of the deposited data

Results flagged for a closer look

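Within the 4 prefixed libraries, 43 values (family sums and members) were examined for a library far from the other 3, and 3 had one. Chance gives such a gap in about 1 of 20 groups. The PAGE sum was 199.9 CPM in 20-ARSF, against 158 to 164 CPM in the other 3. RHOXF2 was 138 CPM in 23-GOLGA8N and listed under 1 read in the others, where its copy RHOXF2B held the reads. MAGEA9B was 5.81 CPM in 21-CTPS2, against 7.33 to 7.52 CPM in the others. Outside the members, the pseudogene SSXP3 had 2.54 CPM in ADORA2A, above the highest reference library at 1.32 CPM. It did not stand apart, since UBE2V1 (2.39 CPM), 22-LAPTM4B (2.34 CPM), 21-CTPS2 (2.21 CPM), LAPTM4B 1 (2.05 CPM) and LAPTM4B 2 (1.72 CPM) were also above that library.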

How the results depend on the processing

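GFP, with 569057 reads, limits every comparison with the reference arm, and CT45 there rests on 2 reads. Of 1018 alternative log2 fold changes of 68 results, 942 kept their sign and 76 did not, and the cause was not tested. None of the 68 results was called in the main fits, so no change of sign could concern a called one. Without the filter on low counts edgeR called 1 member (GAGE12E) in LAPTM4B against reference, 1 (GAGE12E) in GOLGA8N against LAPTM4B and 3 in prefixed against unprefixed, and DESeq2 called 1 family (MAGEA) in the last. Leaving out in turn each of the 9 libraries of the 3 arms, or, for prefixed against unprefixed, each of the 4 prefixed libraries and GFP but no other, 0 members and 0 families were called. In GOLGA8N against reference, values of the other sign were 0.10 for XAGE, -0.84 for RHOXF2 and -0.043 for GAGE12E with unprefixed labels only, -0.0096 for MAGEA with other size factors, -0.0081 for MAGEA with DESeq2, -1.29 for GAGE12E and -0.21 for MAGEA3 with limma-voom, and -0.039 for MAGEA, 0.013 for MAGEB and -0.11 for MAGEA3 against all 14 other libraries. In LAPTM4B against reference they were -0.056 for PAGE, -0.0011 for XAGE, -0.011 for PRAME, -0.043 for PAGE5, -0.077 for MAGEA3 and 0.0098 for XAGE1A against all 14 others, 0.17 for MAGEA and 0.12 for XAGE1A with unprefixed labels only, 0.033 for MAGEA without the filter and 0.20 for RHOXF2 with RHOXF2B added. In GOLGA8N against LAPTM4B they were -0.0030 for GAGE without the filter, and -0.58 for RHOXF2 and 0.30 for MAGEA3 with unprefixed labels only. In prefixed against unprefixed they were -1.005 for RHOXF2 with limma-voom and 0.0030 for GAGE12G without the filter. With libraries left out in this way, the ranges that crossed 0 in GOLGA8N against reference were -0.27 to 0.10 for XAGE, -0.10 to 0.23 for MAGEA, -0.26 to 0.051 for MAGEC, -0.83 to 10.47 for RHOXF2, -0.11 to 1.37 for GAGE12E and -0.35 to 0.53 for MAGEA3. In LAPTM4B against reference they were -0.029 to 0.17 for XAGE, -0.27 to 0.17 for MAGEA, -0.14 to 0.50 for MAGEC, -10.14 to 9.29 for RHOXF2, -0.070 to 0.24 for MAGEA3 and -0.28 to 0.12 for XAGE1A. In GOLGA8N against LAPTM4B they were -0.069 to 0.090 for GAGE, -0.35 to 0.022 for XAGE, -0.14 to 0.32 for MAGEA, -0.091 to 0.18 for MAGEB, -0.61 to 0.046 for MAGEC, -0.18 to 0.37 for SSX, -0.46 to 0.43 for MAGEA3 and -0.62 to 0.43 for MAGEA12. In prefixed against unprefixed they were -9.40 to 0.70 for RHOXF2, -0.65 to 0.68 for GAGE12E and -0.038 to 0.0079 for GAGE12G.

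The numbers 1 and 2 of the GOLGA8N and LAPTM4B labels give 2 pairs, whose deviations correlated with r = 0.11 over 10475 genes. The labels do not say that a number marks anything shared, and 2 pairs are too few to settle it, so the numbers were not taken as pairs. On those 4 libraries, 0 members and 0 families were called with the replicate block and without it. RHOXF2 gave -0.59 and MAGEA3 0.30 in both fits, and MAGEA12 gave 0.028 with the block.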
